A study of Homo sapiens with 12 samples.

Results

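The miR-106b/25 cluster is a group of 3 microRNA hairpins, miR-106b, miR-93 and miR-25, that lie within the gene MCM7 on human chromosome 7. Its 3 guide strands, the strand of each hairpin that is loaded into the silencing complex, were taken as the array features named hsa-miR-106b, hsa-miR-93 and hsa-miR-25. They are 3 of the 851 human microRNA names on the array, and all 3 were among the 208 names that could be tested. The values come from 12 one-colour Agilent microRNA arrays of SUM159, an established human triple-negative breast cancer cell line. The cultures formed 4 groups of 3 biological replicates each. The first held cells stably carrying a Dicer shRNA and given 0.5 mM metformin for 24 h, and the second held control shRNA cells given the same metformin. The third held Dicer shRNA cells given PBS as vehicle, and the last held control shRNA cells given PBS. All cells carried a stably integrated PLKO.1 lentiviral vector, with either a Dicer-targeting or a scrambled insert, so no group was free of vector. The labels give 1 line for each insert and do not say whether it was a clone or a pool. The study asked how metformin changes microRNA levels and whether Dicer bears on that.

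MicroRNAs of a cluster are cut from 1 long transcript. Drosha releases each hairpin in the nucleus, and Dicer, the enzyme targeted by the shRNA, cuts the loop from each hairpin in the cytoplasm to leave a short duplex. MCM7 encodes a subunit of the helicase that opens DNA for replication, and its transcription is driven by E2F factors and MYC in dividing cells. miR-106b and miR-93 belong to the miR-17 family, whose known targets include the cell cycle inhibitor CDKN1A and the transcription factor E2F1. miR-25 belongs to the miR-25/92 family, which is known to silence the pro-apoptotic gene BCL2L11. Metformin is a biguanide used in type 2 diabetes that slows mitochondrial respiration.

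The mature sequences show which members could pair with the same targets. They are from RefSeq on GRCh38.p14, where all 3 guides and all 3 passenger strands matched by name. Each is written 5′ to 3′ with the seed, bases 2 to 8, in capitals. The first 3 are the guides, the next 3 are the relatives from the paralogous miR-17/92 cluster that share a seed with them, and the last is the partner strand of the miR-106b hairpin, the only passenger of this cluster that was detected.
miR-106b: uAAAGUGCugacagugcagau
miR-93: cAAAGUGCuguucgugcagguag
miR-25: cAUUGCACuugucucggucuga
miR-17: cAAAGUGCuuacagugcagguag
miR-20a: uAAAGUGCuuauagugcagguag
miR-92a: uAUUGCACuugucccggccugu
miR-106b*: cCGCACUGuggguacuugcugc

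miR-106b, with 21 bases, and miR-93, with 23 bases, carry the same seed, and their longest shared run is 9 bases. miR-25, with 22 bases, has another seed, and its longest run shared with either of the others is 4 bases. The guides lie on the minus strand of GRCh38.p14 at chr7:100094043-100094063 for miR-106b, chr7:100093815-100093837 for miR-93 and chr7:100093571-100093592 for miR-25. All 3 hairpins fall inside MCM7, at chr7:100092728-100101397, in the order in which the gene is read. They span 515 bases, with 145 bases between the hairpins of miR-106b and miR-93 and 124 bases between those of miR-93 and miR-25. The RefSeq table lists genes without their exons, so the intron named for the cluster was not checked here.

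The hairpins of miR-106b and miR-25 differ in which arm gives the guide, shown in capitals here. The guide of miR-106b is bases 12 to 32 of a hairpin of 82 bases, on the 5′ arm, and 19 bases lie between the 2 mature strands. The guide of miR-25 is bases 52 to 73 of a hairpin of 84 bases, on the 3′ arm, with 17 bases between the strands. The hairpin sequence of miR-93 was not available, so only these 2 are shown. Of the 3 guides, miR-106b had the largest and miR-25 the smallest fold in the knockdown comparison with vehicle. The fold of miR-106b depends on the floor, and a link between the arm and the fold was not tested.
MIR106B: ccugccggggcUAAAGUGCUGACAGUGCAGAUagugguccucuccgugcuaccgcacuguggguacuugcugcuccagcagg
MIR25: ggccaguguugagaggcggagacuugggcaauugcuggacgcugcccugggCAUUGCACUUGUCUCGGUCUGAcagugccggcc

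The 3 hairpins lie inside MCM7, so the promoter window of that gene is shown too. The RNA of MCM7 was not measured, and the part of this promoter in the guides' differences was not tested. The window runs from 250 bases before the gene's start to 50 bases after it, at chr7:100101348-100101647 on the minus strand of GRCh38.p14, and is written in the direction of the gene. Capitals mark matches to the E2F forms TTTCCCGC, TTTCGCGC, TTTGCCGC and TTTGGCGC and to the E-box CACGTG, the letters that MYC can bind, all searched on both strands.
MCM7 promoter: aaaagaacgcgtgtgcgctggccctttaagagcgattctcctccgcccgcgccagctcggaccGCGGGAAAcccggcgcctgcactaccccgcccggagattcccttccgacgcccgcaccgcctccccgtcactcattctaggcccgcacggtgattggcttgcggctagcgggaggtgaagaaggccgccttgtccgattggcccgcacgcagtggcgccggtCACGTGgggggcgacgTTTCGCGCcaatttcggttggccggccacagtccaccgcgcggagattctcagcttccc
The first match, GCGGGAAA, is the reverse complement of TTTCCCGC and starts 187 bases before the gene's start. The E-box starts 25 bases before it and TTTCGCGC 9 bases before it, and the matches do not overlap. Of 35116 promoter windows of the same length, 3.31% held an E2F form, 7.26% held the E-box and 0.308% held both. The 2 other windows listed for MCM7 held none of these letters. Such a match describes the letters only, and no binding was measured here.

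The arrays gave 130 to 204 detected human microRNAs each, with 98 detected on all 12. Signals were set to a common scale by the 75th percentile over those 98, and all signals given here are on this scale, in arbitrary units. A signal that was not detected, or that lay under 3.01, was set to that floor for the tests. Log2 differences are between group means, with the standard error (SE) of the limma fit to all 208 tested names, and a difference is called where its Benjamini-Hochberg adjusted p is under 0.05. The vehicle arrays of both lines shared slide 1 and the metformin arrays of both lines shared slide 2, and the treatment cannot be told apart from the slide. On each slide the control shRNA arrays came first and the Dicer shRNA arrays after them, so the insert and the position on the slide cannot be told apart either. The source names of both metformin groups go against their titles and treatment labels, and the titles were followed. Dicer mRNA is not measured by a microRNA array, and the knockdown was not checked. None of the 5 epithelial miR-200 family members was detected on any array. The 6 microRNAs taken as markers of a mesenchymal-like breast line were all found in all groups, but their summed signal was 283 to 409 in Dicer shRNA cells with metformin, 43.8 to 85.8 in control shRNA cells with metformin, 642 to 781 in Dicer shRNA cells with vehicle and 2076 to 2345 in control shRNA cells with vehicle. In the control shRNA metformin arrays, 2 of 6 blood cell markers, miR-486-5p and miR-223, were detected on all 3 arrays, with a summed signal of 15.2 to 20.4, while no blood cell marker was detected in the other groups. The defining markers miR-451, miR-144, miR-142-3p and miR-142-5p were not detected on any array. Of 4 muscle markers, miR-1 and miR-206 were detected on no array, and the summed signal was 7.74 to 21.1 in Dicer shRNA cells with metformin, 24.9 to 29.9 in control shRNA cells with metformin, 0 to 6.52 in Dicer shRNA cells with vehicle and 0 to 4.41 in control shRNA cells with vehicle. The listed markers of liver, brain and pluripotent cells were detected on no array. The part of these markers in the guides' differences was not tested. In these bulk samples, fewer cells of a type and less RNA per cell cannot be told apart.

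All 3 guides were brightest in control shRNA cells with vehicle, lower in Dicer shRNA cells with vehicle, and near or below detection in control shRNA cells with metformin. miR-25 was the only guide detected on all 3 arrays of Dicer shRNA cells with metformin.

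miR-106b was not detected on any of the 6 metformin arrays, whether of Dicer shRNA or control shRNA cells. In Dicer shRNA cells with vehicle it was not detected on array 1 and had scaled signals of 8.44 and 14.6 on arrays 2 and 3, against 73.0, 70.8 and 82.6 in control shRNA cells with vehicle. Detection of miR-106b was thus complete only in the control shRNA vehicle group, whose signals averaged 75.5 ± 6.30 (SD, n = 3) and lay above those of all other groups. Of all tested names, 63.0% did not overlap between the lines under vehicle and 91.8% between the treatments in control shRNA cells. miR-106b could be tested only because the control shRNA vehicle group detected it on every array.

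miR-93 had a scaled signal of 5.21 on array 2 of Dicer shRNA cells with metformin, was not detected on arrays 1 and 3 of that group, and was not detected on any array of control shRNA cells with metformin. Its signals were 13.0, 21.4 and 22.7 in Dicer shRNA cells with vehicle, against 68.5, 76.5 and 77.2 in control shRNA cells with vehicle. The 2 vehicle groups did not overlap, as for 63.0% of all tested names, with means of 19.0 ± 5.26 in Dicer shRNA cells and 74.0 ± 4.82 in control shRNA cells (SD, n = 3 each).

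miR-25 had scaled signals of 19.3, 22.1 and 16.9 in Dicer shRNA cells with metformin. In control shRNA cells with metformin it was detected on array 2 only, at 4.62. It had 38.8, 37.3 and 37.4 in Dicer shRNA cells with vehicle, against 99.7, 99.4 and 109 in control shRNA cells with vehicle. No pair of the 4 groups overlapped for miR-25; of all tested names, 63.0% did not overlap between the lines under vehicle, 53.8% between the lines under metformin, 91.8% between the treatments in control shRNA cells and 37.0% between the treatments in Dicer shRNA cells. The order of the groups for miR-25, from the top, was control shRNA with vehicle, Dicer shRNA with vehicle, Dicer shRNA with metformin and control shRNA with metformin, and each step down this order was called in the tests that follow.

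The scanner software gives an error for each signal. For the 3 guides in control shRNA cells with vehicle it was 7.63% to 8.31% of the signal. It was larger for the dimmest detected values, 30.7% for miR-93 on the Dicer shRNA metformin array and 29.0% for miR-25 on the control shRNA metformin array.

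**Figure D1:**
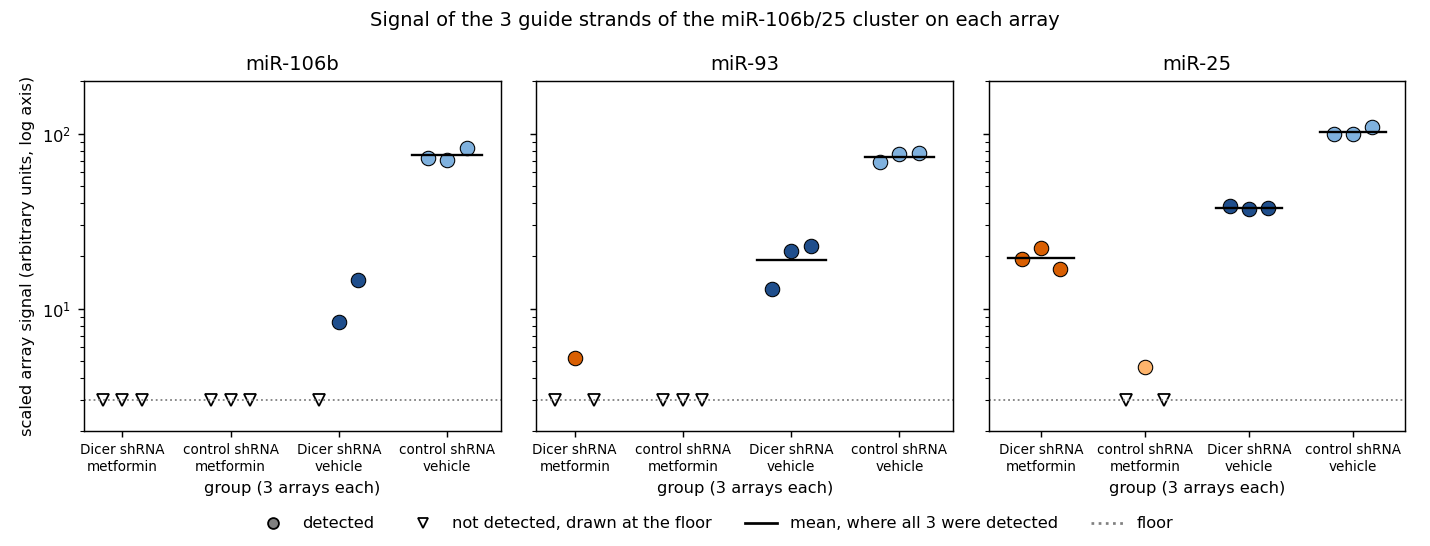
Scaled array signal (arbitrary units, log axis) of miR-106b, miR-93 and miR-25 on each of 12 arrays in 4 groups of 3; circles are detected signals, open triangles are undetected ones drawn at the floor of 3.01, and lines are means where all 3 arrays detected the guide. The 3 control shRNA vehicle arrays stand highest in each panel, and miR-25 alone keeps signals of 16.9 to 22.1 in Dicer shRNA cells with metformin.

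With vehicle, Dicer shRNA cells had less of all 3 guides than control shRNA cells. miR-106b was 10.5-fold lower, a value that depends on the floor for its undetected Dicer shRNA array, miR-93 was 4.01-fold lower and miR-25 was 2.71-fold lower. Over all tested names, 59.6% were called in this comparison, 21.6% as higher and 38.0% as lower, so a lower call was common on these arrays. The log2 difference was -3.39 ± 0.43 (SE) for miR-106b, with an adjusted p of 7.74e-05. It was -2.003 ± 0.25 for miR-93, with an adjusted p of 6.12e-05, and -1.44 ± 0.17 for miR-25, with an adjusted p of 4.40e-05. The median log2 difference was -2.003 over the 3 guides, against 0 over all 208 tested names. miR-106b entered the test only through the control shRNA vehicle group, where it was high, so part of its difference was built in by that filter. The SE and p-values share the spread of all groups, and both metformin groups of miR-106b lay at the floor with no spread. With only the vehicle groups in the limma fit, the adjusted p was 0.0100 for miR-106b, 0.00269 for miR-93 and 4.74e-05 for miR-25.

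The Dicer shRNA value of miR-106b rests on array 1 more than on the others: without that array its log2 difference was -2.76. The split of all calls moved with the scaling, being 45 higher and 79 lower as given, 61 and 53 after quantile normalization, 32 and 90 after median scaling, and 4 and 128 after scaling to viral names. All 3 guides stayed lower and called under each of these scalings. The 4 control features with names starting hur, whose target the files do not give, had a median log2 difference of -0.81 and were all lower, and 10 viral names detected on all arrays had a median of 0.87 and were all higher; the part of either in the guides' differences was not tested.

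The ratios among the 3 guides stood apart between the 2 lines on the vehicle arrays, in a design too small for a test to pass the threshold. The scaling cancels within an array that detected both guides. Array 1 of the Dicer shRNA vehicle group did not detect miR-106b, so there both ratios with miR-106b are set by the floor. With that array, log2 miR-106b minus log2 miR-93 averaged -1.36 ± 0.74 under vehicle with the Dicer shRNA and 0.03 ± 0.12 with the control shRNA (SD, n = 3 each). miR-106b minus miR-25 averaged -2.40 ± 1.19 in Dicer shRNA cells and -0.45 ± 0.05 in control shRNA cells. miR-93 minus miR-25, where all 6 arrays detected both, averaged -1.04 ± 0.47 in Dicer shRNA cells and -0.47 ± 0.08 in control shRNA cells. The groups did not overlap for any of the 3 ratios. Of single tested names 63.0% did not overlap between these groups, and the share among ratios of other pairs was not counted. The differences between the groups were -1.39, -1.95 and -0.56 on the log2 scale. Without array 1 of the Dicer shRNA vehicle group they were -1.01, -1.31 and -0.29. The exact two-sided permutation test gave p = 0.1 for each, the smallest that 3 against 3 arrays allow, and 0.2 after adjustment over the 12 tests of this kind, so none passed 0.05. On these 6 arrays miR-106b was lower relative to both other guides, and miR-93 lower relative to miR-25, in the Dicer shRNA cells.

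**Figure D2:**
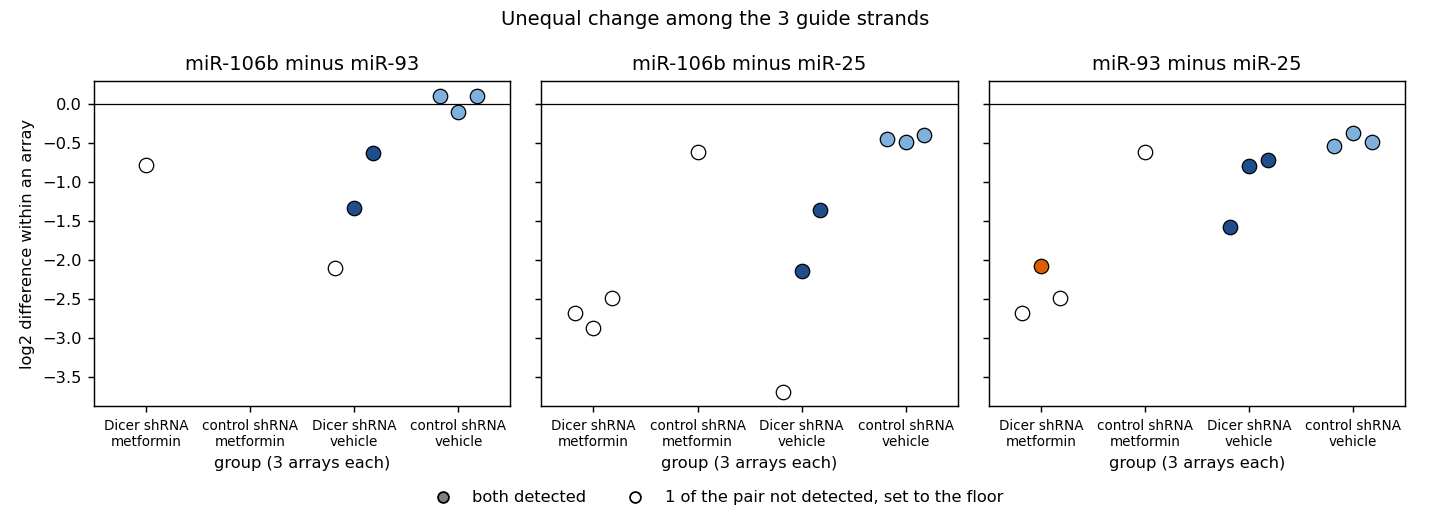
Difference of the log2 signals of each pair of guides within each array, by group, with 3 arrays per group; filled circles are arrays that detected both guides, open circles are arrays where 1 of the pair was not detected and was set to the floor, and arrays with neither are not drawn. In all 3 panels the Dicer shRNA vehicle arrays lie below the control shRNA vehicle arrays.

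Under metformin the 2 lines stood the other way round for miR-25. With metformin, miR-25 was higher with the Dicer shRNA than with the control shRNA, a log2 difference of 2.48 ± 0.17 with an adjusted p of 1.04e-06. The size of this difference depends on the floor, at which 2 of the 3 control shRNA arrays lay. miR-106b was detected in neither line, and no fold is given. miR-93 was detected on 1 Dicer shRNA array and no control shRNA array. It was not called, with an adjusted p of 0.445, and no fold is given. Over all tested names, 38.9% were called here, 13.9% as higher, and the median log2 difference was -0.24. The split of calls was 29 higher and 52 lower, against 23 and 106 after median scaling, 28 and 24 after scaling to viral names, and 31 and 36 with the submitters' processed table; miR-25 was called higher under each. The 4 hur features were all higher, with a median log2 difference of 1.95, and 9 of the 10 viral names were lower, with a median of -0.49; their part in the result was not tested.

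In control shRNA cells, all 3 guides were lower with metformin than with vehicle. miR-106b was at least 25.01-fold lower and miR-93 at least 24.6-fold lower, since neither was detected on the metformin arrays. These bounds set the vehicle mean against the floor or the lowest detected signal of each metformin array, whichever is higher. The floor comes from all detected human names, not from these probes, so the bounds hold for this floor and scaling only. With an array left out, the fitted log2 difference was -4.67 to -4.37 for miR-106b and -4.65 to -4.35 for miR-93. For miR-25 the log2 difference was -4.88 ± 0.17, with an adjusted p of 1.22e-09. Its size depends on the floor, at which 2 of the 3 metformin arrays lay. The adjusted p was 2.74e-06 for miR-106b and 3.29e-08 for miR-93, and miR-106b had entered the test only through the vehicle group of this comparison. The metformin arrays of both guides lay at the floor and add no spread to these p-values. Over all tested names, 88.0% were called in this comparison, 47.6% as higher and 40.4% as lower, so most microRNAs differed between these 2 groups of arrays. The median log2 difference was -4.64 over the 3 guides, against 0.52 over all tested names. The split was 99 higher and 84 lower, against 44 and 117 after scaling to viral names, under which all 3 guides were still called lower. The 4 hur features were lower too, with a median log2 difference of -3.84, while the 10 viral names were all higher, with a median of 1.38; their part in the guides' fall was not tested.

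In Dicer shRNA cells, miR-93 and miR-25 were called lower with metformin than with vehicle. For miR-25 the difference was smaller than in control shRNA cells, by the interaction term given further on, while miR-93 lay at the floor on most metformin arrays and its 2 differences cannot be ranked. For miR-93 the log2 difference was -2.35 ± 0.25, with an adjusted p of 9.35e-05, and its size depends on the floor, at which 2 metformin arrays lay. miR-25, detected on all 6 arrays, was 1.96-fold lower, a log2 difference of -0.97 ± 0.17 with an adjusted p of 0.00193. miR-106b, with the metformin arrays and 1 vehicle array at the floor, had a log2 difference of -1.26 ± 0.43, which was not called, with an adjusted p of 0.0609, and no fold is given. Without array 1 of the Dicer shRNA vehicle group, where it was not detected, its log2 difference was -1.91 and the adjusted p 9.83e-05. Over all tested names, 24.5% were called here, 6.25% as higher and 18.3% as lower, and the median log2 difference was 0. The split was 13 higher and 38 lower, against 6 and 44 with no scaling, 33 and 25 after quantile normalization, and 15 and 24 after scaling to viral names, with miR-93 and miR-25 called lower under each. It was 34 and 12 with the values of the submitters' processed table. With that table, miR-25 was -0.61 and not called, with an adjusted p of 0.456. The 4 hur features had a median log2 difference of -0.999 and were all lower, and 8 of the 10 viral names were higher, with a median of 0.34; their part was not tested.

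Within an array, miR-93 minus miR-25 averaged -2.42 ± 0.30 with metformin and -1.04 ± 0.47 with vehicle in the Dicer shRNA line (SD, n = 3 each). The difference was -1.38, with an exact two-sided permutation p of 0.1, or 0.2 adjusted over the 12 tests. The groups did not overlap, as for 37.0% of single tested names, and the share among other ratios was not counted. With miR-93 at the floor on 2 metformin arrays, this value depends on the floor. For miR-106b minus miR-25 the difference was -0.29, with an exact permutation p of 0.7 and an adjusted p of 0.84. That value was 0.25 without array 3 of the Dicer shRNA vehicle group. miR-106b was not detected on any metformin array or on array 1 of the vehicle group. The ratio there is the floor set against miR-25, so this test cannot show whether both guides fell equally.

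**Figure D3:**
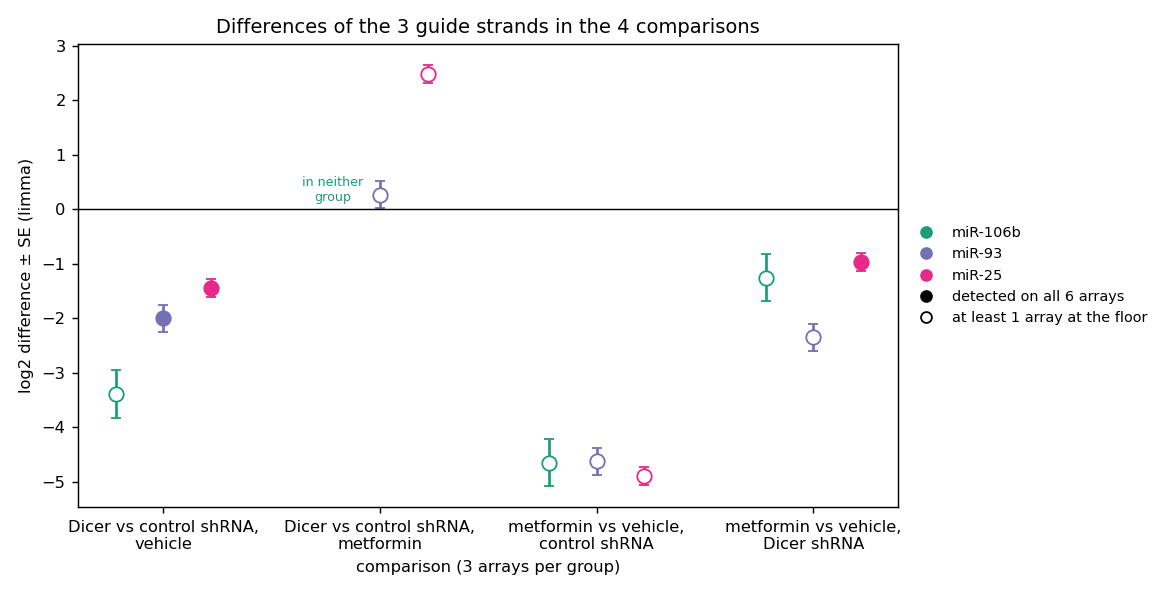
Log2 difference with its SE from the limma fit for the 3 guides in the 4 comparisons, 3 arrays per group; filled circles are guides detected on all 6 arrays and open circles have at least 1 array at the floor. All 3 guides lie below 0 with the Dicer shRNA under vehicle and with metformin in both lines, and miR-25 lies at 2.48 for the Dicer shRNA under metformin.

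For miR-25, the difference between the 2 lines was not the same on the 2 slides. The interaction, the knockdown difference under metformin minus that under vehicle, was 3.91 ± 0.24 on the log2 scale for miR-25, with an adjusted p of 3.52e-07. It was 2.27 ± 0.35 for miR-93, with an adjusted p of 0.000225, and 3.39 ± 0.61 for miR-106b, with an adjusted p of 0.000653. Both values are set by the floor: miR-106b was detected on no metformin array and miR-93 on 1 of 6, so the terms largely restate the vehicle differences. Over all tested names, 76.4% were called for the interaction, 37.0% as higher and 39.4% as lower. The split was 77 higher and 82 lower, against 114 and 21 after scaling to viral names, with all 3 guides called higher under it too. In this term, too, treatment and slide cannot be told apart. The 4 hur features were all higher in the interaction, with a median of 2.84, and the 10 viral names all lower, with a median of -1.32; their part was not tested.

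With the slide as a block, which averages the knockdown difference over both slides, 51.0% of all tested names were called, 15.4% as higher and 35.6% as lower. miR-106b was -1.69 ± 0.31 with an adjusted p of 0.00117 and miR-93 was -0.87 ± 0.17 with an adjusted p of 0.00218. On the metformin slide, miR-106b was detected in neither line, and miR-93 on 1 Dicer shRNA array and no control shRNA array. The metformin part of both averages is thus set by the floor. Both averages largely restate the vehicle differences and do not show a fall on both slides. miR-25 was 0.52 ± 0.12 with an adjusted p of 0.00444, the mean of a fall on the vehicle slide and a rise on the metformin slide. That value was 0.09 and not called after median scaling, and -0.17 and not called after scaling to viral names. The split of calls was 32 higher and 74 lower, against 56 and 47 after quantile normalization, 4 and 129 after median scaling, and 3 and 116 after scaling to viral names.

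The partner strands of the 3 hairpins were dim. miR-106b* was not detected on the metformin arrays of either line. It had a scaled signal of 2.00 on array 3 of the Dicer shRNA cells with vehicle, against 2.12, 3.18 and 2.87 in control shRNA cells with vehicle. Most of these values lie under the floor of 3.01, so its vehicle difference of -0.03 was set by the floor and was not called, with an adjusted p of 0.809. miR-93* and miR-25* were detected on 0 of 12 arrays. A dim partner strand here gives no order against the guides, since signals of different probes were not compared.

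The microRNAs with the same seeds were followed as the nearest relatives of the cluster. The seed AAAGUGC of miR-106b and miR-93 is carried by 7 names on the array, of which 4 were tested, namely these 2 with miR-17 and miR-20a. miR-20b was detected on 2 arrays of control shRNA cells with vehicle, and miR-519d and miR-526b* on none. miR-106a was not analysed here. The seed AUUGCAC of miR-25 is carried by 6 names, of which miR-25 and miR-92a were tested. miR-92b was detected on 3 arrays, and miR-32, miR-363 and miR-367 on none. A probe may also bind a near-identical relative, and how far this happened was not tested.

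miR-17 had scaled signals of 26.7, 25.3 and 31.5 in control shRNA cells with vehicle and was detected in no other group. It was at least 8.56-fold lower in Dicer shRNA than in control shRNA cells with vehicle, with an adjusted p of 6.47e-10, and at least 9.21-fold lower with metformin than with vehicle in control shRNA cells, with an adjusted p of 4.20e-10. miR-20a, at 15.9, 17.04 and 25.4 in control shRNA cells with vehicle, was likewise detected in no other group. It was at least 5.87-fold lower in Dicer shRNA than in control shRNA cells with vehicle, with an adjusted p of 1.39e-07. In control shRNA cells it was at least 6.32-fold lower with metformin than with vehicle, with an adjusted p of 4.64e-08. All 4 tested carriers of the miR-106b seed were called lower in both of these comparisons. Of all tested names, 38.0% were called lower in the knockdown comparison and 40.4% in the metformin comparison. miR-106b, miR-17 and miR-20a entered the test only through the group where they were high, so their lower calls were partly built in. Groups without detection lay at the floor with no spread, so the p-values of miR-17 and miR-20a hold none of the spread between those cultures.

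miR-92a, the relative of miR-25 from the paralogous cluster, was detected on all 12 arrays. It had scaled signals of 155, 173 and 122 in Dicer shRNA cells with metformin, against 72.2, 90.3 and 90.7 in control shRNA cells with metformin. With vehicle it had 212, 250.5 and 231 in Dicer shRNA cells, against 347, 362.6 and 382 in control shRNA cells. The order of its 4 groups was that of miR-25, and the groups did not overlap. Of all tested names, 63.0% did not overlap between the lines under vehicle and 53.8% between them under metformin. Between the treatments the share was 91.8% in control shRNA cells and 37.0% in Dicer shRNA cells. Its log2 difference between Dicer shRNA and control shRNA cells was 0.83 ± 0.14 under metformin, with an adjusted p of 0.00107, and -0.66 ± 0.14 under vehicle, with an adjusted p of 0.00234. Between metformin and vehicle it was -2.12 ± 0.14 in control shRNA cells, with an adjusted p of 2.22e-07, and -0.63 ± 0.14 in Dicer shRNA cells, with an adjusted p of 0.0103. The step was larger for miR-25 than for miR-92a under vehicle: within an array, miR-25 minus miR-92a averaged -2.61 ± 0.15 with the Dicer shRNA and -1.83 ± 0.04 with the control shRNA (SD, n = 3 each), a difference of -0.78. The exact two-sided permutation p was 0.1, the smallest possible, and this pair was chosen after its values were seen.

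The paralogous miR-17/92 cluster on chromosome 13 holds 6 guides, miR-17, miR-18a, miR-19a, miR-20a, miR-19b and miR-92a, and all 6 were tested. miR-17, miR-18a, miR-19a and miR-20a entered the test only through control shRNA cells with vehicle, where they were high, so lower calls for them were partly built in. With vehicle, 6 of 6 were called lower in Dicer shRNA than in control shRNA cells, against 38.0% of all tested names. Their median log2 difference was -2.93, or -2.83 with undetected guides at their bound. Under metformin, 1 of 6, miR-92a, was called higher in Dicer shRNA cells, against 13.9% of all tested names, while 4 were detected in neither line. miR-19b, the other one, was detected on 2 of 3 Dicer shRNA arrays and no control shRNA array, and was not called, with an adjusted p of 0.0891. In control shRNA cells 6 of 6 were called lower with metformin than with vehicle, against 40.4% of all tested names, among them miR-19b, which was at least 94.0-fold lower with an adjusted p of 1.35e-07. In Dicer shRNA cells 2 of 6, miR-19b and miR-92a, were called lower with metformin, against 18.3% of all tested names. The other paralogous cluster, which runs from miR-106a to miR-363, has 5 of its 6 guides on the array, and the 3 tested ones, miR-18b, miR-19b and miR-92a, were all called lower in Dicer shRNA cells with vehicle, against 38.0% of all tested names. miR-18b, too, entered the test only through control shRNA cells with vehicle. miR-19b and miR-92a have a gene in both of these clusters but 1 name each on the array, so the counts for the 2 clusters are not independent.

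**Figure D4:**
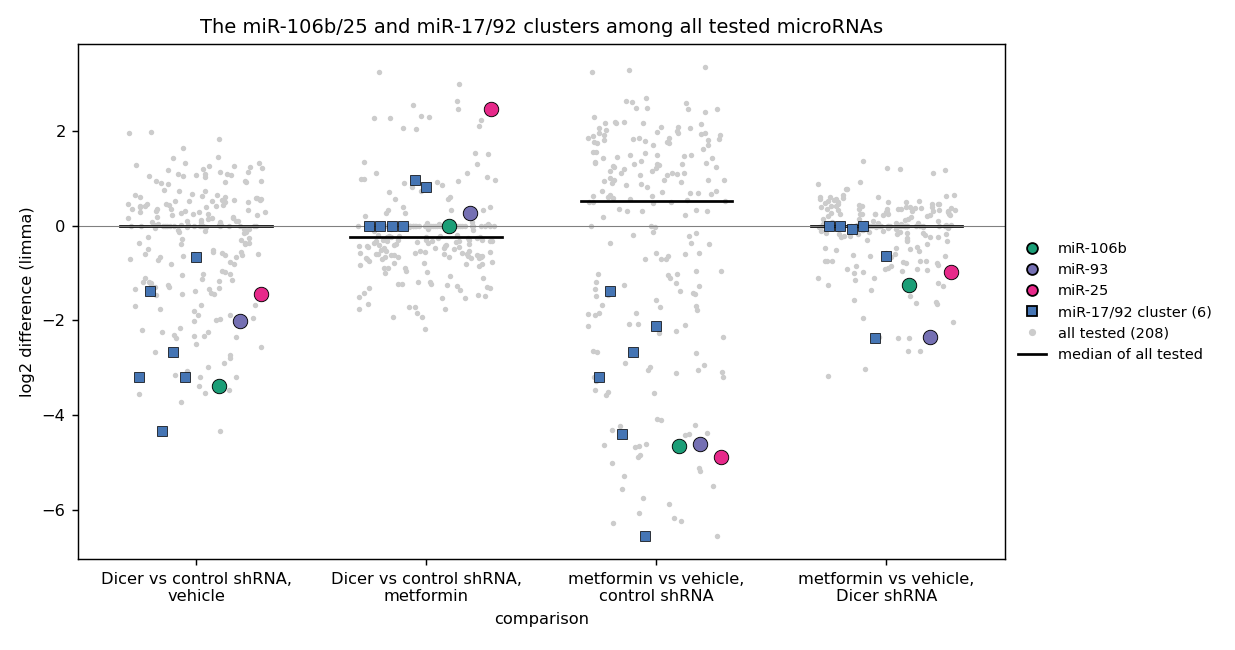
Log2 differences of the 3 guides of the miR-106b/25 cluster (circles) and the 6 of the miR-17/92 cluster (squares) among all 208 tested microRNAs (grey dots, spread sideways for view) in 4 comparisons; black lines are the medians of all tested. The guides lie at -4.88 to -4.62 for metformin in control shRNA cells, where the median is 0.52, and miR-25 lies at 2.48 for the Dicer shRNA under metformin, where the median is -0.24.

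Across the 12 arrays, the 3 guides followed each other to different degrees. Pearson's r of their log2 values was 0.94 between miR-106b and miR-93, 0.88 between miR-93 and miR-25, and 0.79 between miR-106b and miR-25. On the 6 vehicle arrays alone it was 0.99, 0.96 and 0.92. These are descriptions without a test, since the arrays share groups, slides, the scaling and, for 14 of the 36 member values, the floor. Among 206 names compared over the 12 arrays, miR-93 was at rank 19 for likeness to miR-106b, and miR-25 was at rank 65. By the same measure, the names most like the mean of the 3 guides over the 12 arrays were let-7c with r of 0.996, miR-146a with 0.992, miR-19b with 0.992, miR-199a-5p with 0.986 and miR-27b with 0.984, out of 204 names. On the 6 vehicle arrays they were miR-26a with 0.998, miR-125b with 0.997, let-7c with 0.996, miR-19b with 0.996 and let-7a with 0.995. Only let-7c and miR-19b stood in both of these lists of 5.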

How the data were processed

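MicroRNA levels were measured in 12 SUM159 cultures, 3 biological replicates in each of 4 groups. Per the submitters' processing notes, Agilent Feature Extraction 9.1 was used. The deposited per-array files hold 1 row per microRNA name with its total gene signal, a linear intensity, per the file headers, an error and a detection flag, and 0.1 where a name was not detected. The labelling protocol in the labels describes an mRNA kit. The series' deposited table of processed log2 values has 221 rows. Its normalization, centring and direction are not stated; its column medians were 3.19 to 4.06, and over detected member values it had r = 0.990 with the log2 array signal. Its scale therefore stays partly unknown, and it served as an alternative only.

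Signals of the 851 human names were scaled to each array's 75th percentile over the 98 detected on all 12 arrays, dividing by 0.869 to 1.20, and set to a floor of 3.01 (the 5th percentile of each array's detected signals, then the median of these). The 88 viral and 22 control names were kept out. Tested were the 208 names that some group detected on all 3 of its arrays, with limma 3.58.1 in R 4.3.3, with 4 group means, 8 residual degrees of freedom and Benjamini-Hochberg adjustment. Ratios within an array were compared by exact permutation. The fit was tested on simulated data that had no undetected values and no floor, so that check does not cover guides at the floor. The number of arrays limits the precision. Replicates differed: no pair held identical detected values. P-values measure the spread between these cultures, except that a group wholly at the floor adds no spread and can make them too small. The members, the lists of relatives and markers and the tests were chosen with earlier results of these data known. Named were the 3 guides, their partner strands, the related clusters and seed families, and the 5 names of closest pattern. Alternatives covered scaling, floor, filter, array weights, replicate block, the processed table, the groups in the fit and each array left out.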

Additional observations from a re-analysis of the deposited data

Results flagged for a closer look

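The interaction term of the limma fit was called for all 3 guides. It was called for 76.4% of all tested names, 37.0% as higher. The knockdown difference under metformin minus that under vehicle was 3.39 on the log2 scale for miR-106b, with an adjusted p of 0.000653. It was 2.27 for miR-93, with an adjusted p of 0.000225, and 3.91 for miR-25, with an adjusted p of 3.52e-07. The terms of miR-106b, detected on no metformin array, and of miR-93, detected on 1 of 6, are set by the floor and largely restate the vehicle differences. For miR-25, detected in both lines under metformin but on 1 of 3 control shRNA arrays, the 3 Dicer shRNA arrays lay above the 3 control shRNA arrays under metformin and below them under vehicle. The treatments lay on different slides, and treatment and slide cannot be told apart.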

How the results depend on the processing

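Across the 4 comparisons, the interaction and the average over slides, 173 values of the guides obtained with another setting kept their direction and side of the threshold, 5 lost a call, 1 gained one and 2 reversed; with an array left out, 202 kept both and 1 gained a call. With vehicle, all 3 guides stayed lower in Dicer shRNA than in control shRNA cells and were called under every alternative run, with log2 differences of -4.45 to -1.99 for miR-106b, -3.20 to -1.37 for miR-93 and -2.64 to -0.65 for miR-25 over settings other than leaving out an array. The exceptions, whose cause was not tested, lay in 2 results. For metformin in Dicer shRNA cells, array weights gave miR-106b -1.53 and called it, the submitters' processed table gave miR-25 -0.61 without a call, and leaving out each array gave miR-106b -1.91 to -0.73. For the average over slides, miR-93 lost its call at -0.58 after quantile normalization and -0.58 with the processed table, while miR-25 was 0.090 after median scaling, -0.17 after scaling to viral names, -0.062 when 16 was added to each signal and no floor was set and 1.06 with the processed table, none of them called. The within-array difference of miR-106b minus miR-25 for metformin in Dicer shRNA cells was 0.10 with 16 added and -0.96 to 0.25 with an array left out. Restricting the test to the 98 names detected on all 12 arrays gives no value for these guides. It left 64 calls for the knockdown under vehicle and 44 for it under metformin. It left 86 for metformin in control shRNA cells, 28 for it in Dicer shRNA cells, 72 for the interaction and 27 for the average over slides. Most calls were then higher for the knockdown under vehicle, 40 against 24 lower. The same held for the average over slides, with 18 higher and 9 lower. Calls for the knockdown under metformin numbered 129 after median scaling and 52 after scaling to viral names. Calls for metformin in Dicer shRNA cells numbered 24 without a filter, 80 with array weights, 19 when only those 2 groups were fitted, and 32 to 72 with an array left out, the low end being 33 without Dicer shRNA vehicle replicate 2 and 32 without Dicer shRNA metformin replicate 3. Calls for the average over slides numbered 66 without a filter. Scaling to viral names moved the median of all tested names by -0.98 for the knockdown under vehicle and by -1.43 for metformin in control shRNA cells, and all 3 guides lay below these shifted medians. The 75th percentile over all human names is the value of undetected names, so that alternative equals no scaling. Whether replicate numbers pair the arrays could not be settled. Deviations from group means correlated at -0.27 to 0.69 between arrays of the same number, with a median of 0.091, and 9 of 18 such pairs exceeded 0.1. Between arrays of different numbers they correlated at -0.58 to 0.57, with a median of -0.050, and 13 of 36 pairs exceeded 0.1. These ranges overlap widely, and no pairing was used in the main fit. With the replicate block the calls numbered 124, 83, 182, 47, 159 and 102, in the order of the 6 results given for the restricted test, and no call of a guide changed. Dim signals limit miR-106b and miR-93 on the metformin arrays, where their levels have only an upper bound, except for miR-93 on Dicer shRNA array 2.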
